A study of Mus musculus with 6 samples.

Results

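The genes described here are the 10 that make up the core of the interleukin-1 (IL-1) system and of the NLRP3 inflammasome: the ligands Il1a, Il1b and Il18, the receptor antagonist Il1rn, the receptors Il1r1, Il1rap and Il1r2, and the inflammasome genes Nlrp3, Pycard and Casp1. They were picked by symbol for their place in the pathway, and all 10 were found among the 16516 genes of the table and had enough counts to be tested. RNA-seq was performed on CD11b+ cells taken from the cortex of male C57BL6/J mice aged 8 to 10 weeks, in 3 4LPS samples and 3 NS samples. The 4LPS mice had received lipopolysaccharide (LPS) of Escherichia coli 055:B5 intraperitoneally at 500 µg/kg, 1 injection a day for 4 days, and the NS mice had received 4 injections of normal saline at the same volume. Cortices were collected at D7, counted from the first injection, dissociated and passed over magnetic beads against CD11b (MACS), and each RNA sample held the cells of 2 mice. CD11b is carried by microglia, but also by neutrophils, monocytes and natural killer (NK) cells, so the sort does not separate these cells, although the labels call them microglia. The samples are bulk RNA, in which more cells of a type and more RNA per cell cannot be told apart. The p-values measure the spread between these pools, not between single mice.

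IL-1α and IL-1β signal through the receptor IL1R1 and its accessory chain IL1RAP to MyD88, IRAK kinases and NF-κB, and they are among the first cytokines that microglia and other myeloid cells make after LPS. The system carries its own brakes: the antagonist IL1RN occupies IL1R1 without signalling, and the decoy receptor IL1R2 binds IL-1 without passing a signal on. IL-1β and IL-18 are made as inactive precursors that caspase-1 cuts once a sensor such as NLRP3 and the adaptor ASC (encoded by Pycard) have assembled an inflammasome. RNA-seq measures the mRNA of these genes, not precursor cleavage or release.

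Of the 10 genes, the antagonist Il1rn and the decoy receptor Il1r2 rose in 4LPS samples, the ligand gene Il18 fell, and 7 did not pass at an adjusted p under 0.05 (edgeR's quasi-likelihood test, Benjamini-Hochberg over 13151 genes). Il1rn and Il1r2 were 3.67-fold and 3.81-fold higher in 4LPS samples, and the level of Il18 was 0.784 times that of NS samples. Among all genes tested, 9.95% were called higher and 6.43% lower, 16.4% in either direction. With 10 genes, 2 higher and 1 lower are too few to set this group apart from that background. The median log2 fold change of the 10 genes was 0.18, against -0.02 over all genes tested. For 3 members all 4LPS samples lay above all NS samples, and for 1 all lay below, where 19.9% of all genes tested did the first and 17.5% the second, 37.4% together.

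Total counts were 15164123 to 15462396 in the 4LPS samples and 15158342 to 15746606 in the NS samples, so depth was nearly equal. The 9 microglial marker genes (Tmem119, P2ry12, Sall1, Siglech and others) were all detected. They summed to 33940 to 34052 CPM (counts scaled to a common library total) in 4LPS samples and 35030 to 36677 CPM in NS samples. By edgeR 1 of them, P2ry12, was lower and 8 did not pass, with a median log2 fold change of -0.17. For 7 of the 9 all 4LPS samples lay below all NS samples, and for 2 all lay above. Among all genes tested these shares were 17.5% and 19.9%. DESeq2 called 1 of the 9 higher, and its calls of falls were not counted. NS replicate 3 stood apart from the other NS samples in genes that bear on the results: 10 neutrophil markers summed to 779 CPM in it, against 201 and 207 CPM in NS replicates 1 and 2. For that reason, values without this sample are given where they change a call. NS replicate 3 was also the highest NS sample in Il1a, Il1b, Il1rn, Il1r2, Pycard and Casp1. Leaving it out therefore raises their fold changes by construction, so a call gained that way is no independent support. Without any other 1 sample Il1a, Il1b, Pycard and Casp1 did not pass (edgeR). With 3 samples in each group, an exact two-sided permutation test of a single gene cannot go below p = 0.1, so every p-value comes from the model fitted across all genes.

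**Figure D1:**
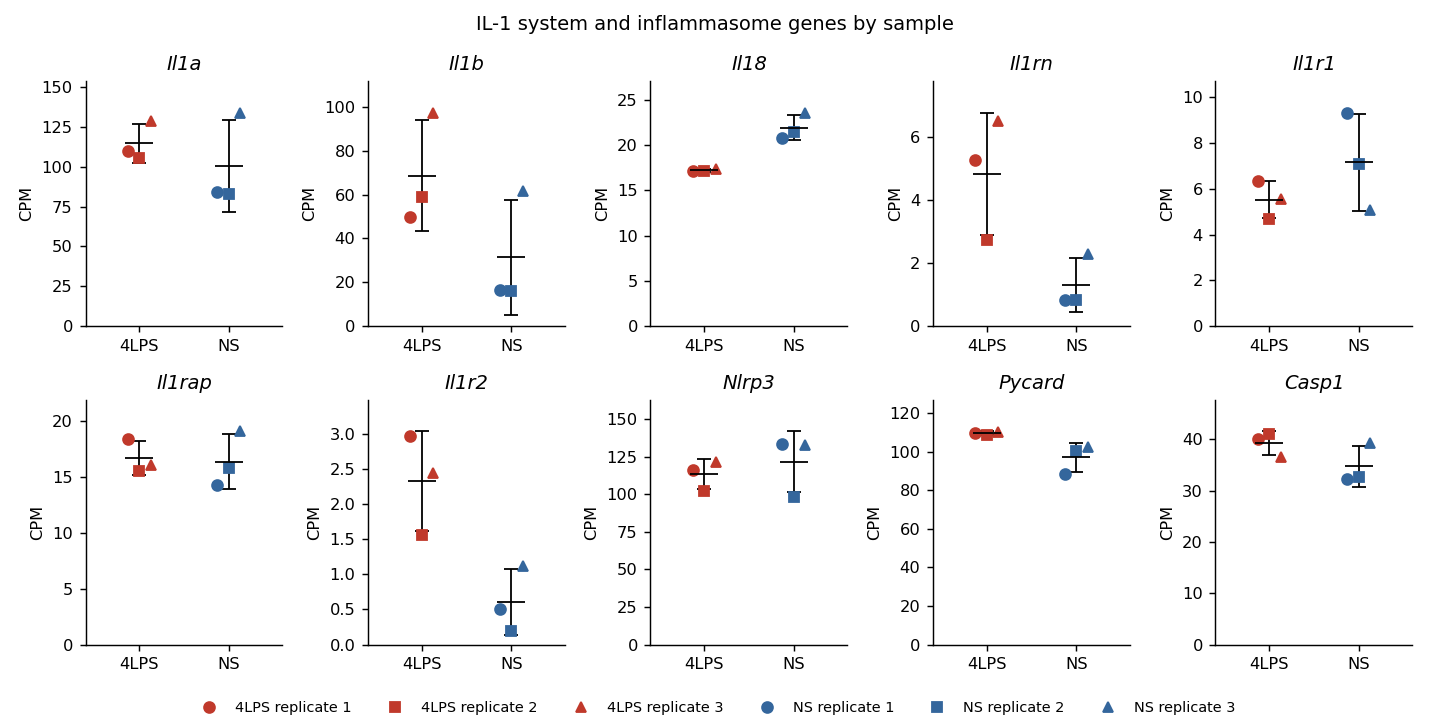
Expression of the 10 genes in CPM (vertical axes, each from 0) in 4LPS samples (red, left) and NS samples (blue, right). Marker shapes give the replicate number, horizontal bars the mean and vertical bars the SD (n = 3 each). Il1rn and Il1r2 lie higher in every 4LPS sample than in any NS sample, Il18 lies lower, and in Il1a and Il1b NS replicate 3 lies among or above the 4LPS samples.

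The bases just upstream of the start site are shown for 5 members: Il1a and Il1b, neighbouring ligand genes whose levels moved together across samples, and Il1rn, Il1r2 and Il18, the members that passed the test. Each line holds the 250 bases before a RefSeq start site of the gene, 5′ to 3′ on the gene's own strand, from the RefSeq promoter table of GRCm38.p6. This site need not be the end of the gene span given below, which comes from another annotation and genome build. Capitals mark matches to motifs searched on both strands: the TATA box TATAAA, the AP-1 site TGANTCA, the PU.1 site GAGGAAG, an NF-κB site (GGGA and TTCC with 2 bases of any kind between them) and an interferon response element (GAAA and GAAA with 2 bases of any kind between them).
Il1a, chr2:129309973-129310222, minus strand: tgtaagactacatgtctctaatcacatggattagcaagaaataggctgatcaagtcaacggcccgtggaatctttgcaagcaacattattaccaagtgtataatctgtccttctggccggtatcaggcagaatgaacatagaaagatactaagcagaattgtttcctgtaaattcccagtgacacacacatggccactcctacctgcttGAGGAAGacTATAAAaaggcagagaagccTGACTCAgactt
Il1b, chr2:129371140-129371389, minus strand: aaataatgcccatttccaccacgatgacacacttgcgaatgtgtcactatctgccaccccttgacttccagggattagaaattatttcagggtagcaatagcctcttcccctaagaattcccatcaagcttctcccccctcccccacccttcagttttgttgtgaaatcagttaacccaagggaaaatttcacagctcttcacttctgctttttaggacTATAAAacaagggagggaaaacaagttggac
Il1rn, chr2:24336610-24336859, plus strand, the first of 3 starts: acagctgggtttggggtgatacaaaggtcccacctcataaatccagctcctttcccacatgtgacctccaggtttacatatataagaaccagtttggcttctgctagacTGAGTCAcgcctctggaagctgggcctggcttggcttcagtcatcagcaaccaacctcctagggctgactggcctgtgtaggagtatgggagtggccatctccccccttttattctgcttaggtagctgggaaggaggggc
Il1r2, chr1:40085843-40086092, plus strand: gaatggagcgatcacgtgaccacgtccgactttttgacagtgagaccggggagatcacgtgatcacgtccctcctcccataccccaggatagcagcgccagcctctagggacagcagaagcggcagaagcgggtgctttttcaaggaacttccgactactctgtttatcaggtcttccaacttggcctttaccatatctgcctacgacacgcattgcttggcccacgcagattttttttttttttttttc
Il18, chr9:50554450-50554699, plus strand: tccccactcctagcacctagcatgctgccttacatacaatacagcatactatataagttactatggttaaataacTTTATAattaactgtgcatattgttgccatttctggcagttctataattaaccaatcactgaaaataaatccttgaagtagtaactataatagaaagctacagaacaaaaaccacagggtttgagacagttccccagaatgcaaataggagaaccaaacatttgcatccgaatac

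In Il1a and Il1b a TATA box began 32 and 31 bases before the start, and 12.4% of all 32851 promoters in the table hold this motif within 250 bases. Il1a also held the AP-1 motif 12 bases and the PU.1 motif 41 bases before the start, found in 6.75% and 10.6% of promoters. The first start of Il1rn held an AP-1 motif 141 bases upstream, its other 2 starts held none of the 5 motifs, and the window of Il1r2 held none. Counts are per gene and do not show which start of Il1rn was used. Il18 had the TATA letters only on the opposite strand, 175 bases upstream. The NF-κB and interferon motifs, present in 1.21% and 2.98% of promoters, were in none of the members' windows. These are letter matches in a short window and not measured binding sites.

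Il1b encodes IL-1β. On chromosome 2 of GRCm39 it spans 129206490 to 129213059 on the minus strand with 7 exons, 54.4 kb from Il1a. Il1b stood at 49.9, 59.0 and 97.4 CPM in 4LPS replicates 1, 2 and 3, against 16.4, 16.2 and 61.5 CPM in NS replicates 1, 2 and 3. NS replicate 3 was above 2 of the 4LPS samples, and the other NS samples were below all of them, so the groups overlapped. The mean was 68.8 ± 25.2 CPM in 4LPS and 31.4 ± 26.1 CPM in NS (SD, n = 3 each), a log2 fold change of 1.13 with a standard error (SE) of 0.52 and a 95% interval from -0.07 to 2.33, which did not pass (edgeR adjusted p = 0.170). Without NS replicate 3 the log2 fold change was 2.08 and passed (edgeR adjusted p = 0.0028). Without any other 1 sample it ran from 0.81 to 1.33 and did not pass (edgeR adjusted p from 0.172 to 0.397). The 3 other genes with the pattern most like Il1b over the 6 samples were Haus5 (Pearson r = 0.997 of log2(CPM + 1)), Ccl4 (r = 0.995) and Prmt3 (r = 0.993), out of 10256 genes compared. Ccl4, a chemokine of activated microglia, stood at 37.7, 49.7 and 67.5 CPM in 4LPS samples and 17.4, 15.3 and 45.1 CPM in NS samples, again with NS replicate 3 above the other NS samples.

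Il1a, which encodes IL-1α, lies on chromosome 2 at 129140291 to 129152098, on the minus strand. It stood at 110, 105 and 129 CPM in 4LPS samples, against 84.2, 83.2 and 134 CPM in NS samples. The highest value of all was in NS replicate 3, and NS replicates 1 and 2 were the lowest. The log2 fold change was 0.19 (SE 0.18, 95% interval from -0.23 to 0.61) and did not pass (edgeR adjusted p = 0.491), while without NS replicate 3 it was 0.46 (edgeR adjusted p = 0.0118). Across the 6 samples Il1a and Il1b moved together (r = 0.93 of log2(CPM + 1)), a description over samples that fall into 2 groups.

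Per length, Il1a was the member with the highest mean in both groups, at 65.6 ± 6.9 FPKM in 4LPS and 61.3 ± 17.4 FPKM in NS (SD, n = 3 each). Il1b stood at 62.5 ± 22.9 FPKM in 4LPS and 30.4 ± 25.2 FPKM in NS. The ratio of Il1b to Il1a within a sample was 0.72, 0.89 and 1.21 in 4LPS samples and 0.31, 0.31 and 0.73 in NS samples. Il1b exceeded Il1a in 4LPS replicate 3 and stood below it in the other 5 samples, furthest in NS replicates 1 and 2.

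Immediate early genes, which can be switched on while tissue is dissociated, moved with Il1b in part (r = 0.77 of log2 values over 6 samples). The 22 listed genes (Fos, Jun, Egr1, Atf3, Hspa1a and others, all in the table) summed to 7697, 8793 and 11352 CPM in 4LPS samples and 5714, 8352 and 9163 CPM in NS samples. In each group replicate 3 had the highest sum and the highest Il1b. NS replicate 2 had a higher sum than NS replicate 1 and 4LPS replicate 1, but its Il1b was lower than in either. Of the 22 genes, 1, Dusp1, was called higher and 21 did not pass. Their part in the levels of Il1b was not tested.

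Il18, the other inflammasome-dependent cytokine gene, lies on chromosome 9 at 50466081 to 50493633, on the plus strand with 6 exons. It stood at 17.1, 17.1 and 17.4 CPM in 4LPS samples, against 20.8, 21.4 and 23.6 CPM in NS samples. The 4LPS samples were nearly equal and all were below the lowest NS sample. The mean was 17.2 ± 0.131 CPM in 4LPS and 21.9 ± 1.43 CPM in NS (SD, n = 3 each), a log2 fold change of -0.35 (SE 0.085, 95% interval from -0.55 to -0.15, edgeR adjusted p = 0.0295). Per length, Il18 stood at 19.0 ± 0.287 FPKM in 4LPS and 25.7 ± 1.53 FPKM in NS. The call was near the threshold: edgeR gave adjusted p = 0.0818, 0.0858 and 0.0772 without 4LPS replicates 1, 2 and 3, 0.0581 and 0.0662 without NS replicates 1 and 2, and 0.0493 without NS replicate 3, and DESeq2 on all samples gave 0.0615. The fold change stayed between -0.45 and -0.29 on the log2 scale in all 18 alternatives.

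The genes most like Il18 over the 6 samples were Smarcb1 (r = 0.999), Pafah1b2 (r = 0.994) and Zrsr1 (r = 0.993). Smarcb1, a subunit of the SWI/SNF chromatin remodelling complex, stood at 38.2, 37.9 and 38.6 CPM in 4LPS samples and 42.7, 43.4 and 46.1 CPM in NS samples. It shares with Il18 the narrow 4LPS group and the highest value in NS replicate 3. The summed microglial markers were also close together in 4LPS samples and highest in NS replicate 3, at 34043, 34052 and 33940 CPM in 4LPS samples and 35030, 36048 and 36677 CPM in NS samples, and their part in the level of Il18 was not tested.

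Il1rn, on chromosome 2 at 24226865 to 24241506 on the plus strand with 5 exons, had few counts: 78, 40 and 96 in 4LPS samples, against 13, 13 and 37 in NS samples. These were 5.26, 2.72 and 6.51 CPM in 4LPS samples and 0.818, 0.817 and 2.29 CPM in NS samples. All 4LPS samples were above all NS samples, but 4LPS replicate 2 and NS replicate 3 were close. The mean was 4.83 ± 1.93 CPM in 4LPS and 1.31 ± 0.852 CPM in NS (SD, n = 3 each), a log2 fold change of 1.87 (SE 0.48, 95% interval from 0.75 to 3.0, edgeR adjusted p = 0.0367). The call did not hold without 4LPS replicate 1 (edgeR adjusted p = 0.0827), 4LPS replicate 3 (0.1135), NS replicate 1 (0.120) or NS replicate 2 (0.102), while the log2 fold change stayed between 1.61 and 2.55 in these fits and those without the other samples. Without NS replicate 3 it was 2.55 (edgeR adjusted p = 0.00755).

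Lgals3 (r = 0.997), Cfp (r = 0.995) and Antxr2 (r = 0.994) had the patterns most like Il1rn among 10257 genes. Lgals3 encodes galectin-3, made by activated macrophages and microglia, and Cfp encodes properdin, the complement protein that monocytes and neutrophils store. Cfp stood at 18.5, 13.8 and 22.8 CPM in 4LPS samples and 8.18, 7.86 and 11.6 CPM in NS samples, with 4LPS replicate 2 the lowest of its group and NS replicate 3 the highest of its group, as in Il1rn.

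Set against its ligands per length, the antagonist was scarce in both groups. Il1rn reached 2.16%, 1.07% and 1.78% of the summed FPKM of Il1a and Il1b in 4LPS samples, against 0.587%, 0.576% and 0.774% in NS samples, and the groups did not overlap. Against Il1b alone it was 5.16%, 2.27% and 3.25% in 4LPS samples and 2.48%, 2.45% and 1.83% in NS samples, where they did. In that second ratio the value of 4LPS replicate 2 lay inside the NS range.

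**Figure D2:**
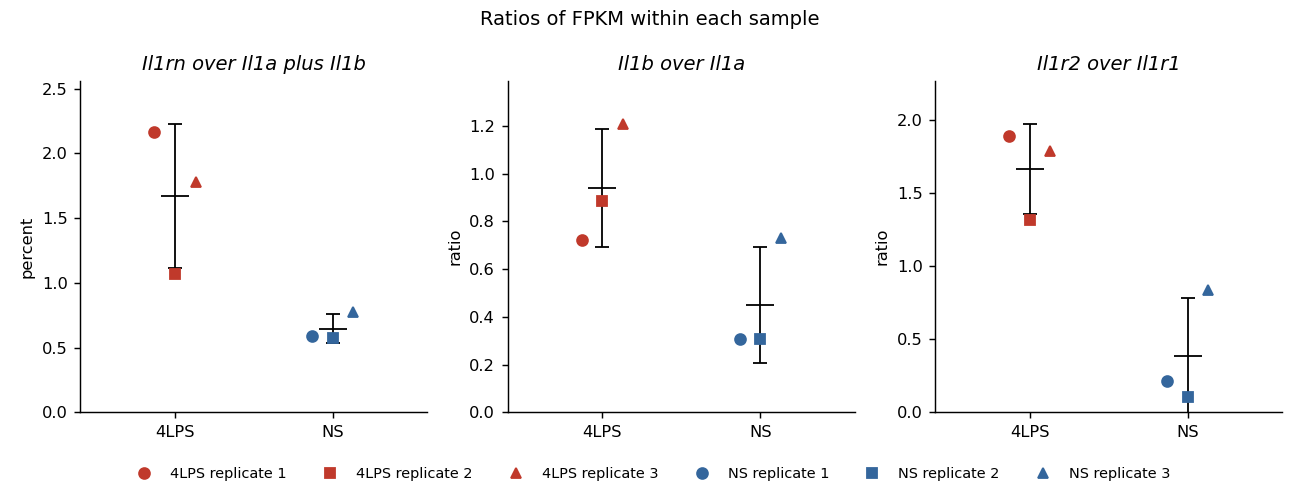
Ratios of FPKM within each sample: Il1rn as a percent of Il1a plus Il1b, Il1b over Il1a, and Il1r2 over Il1r1 (vertical axes, each from 0) in 4LPS (red, left) and NS samples (blue, right), with mean and SD (n = 3 each, lower SD bars cut at 0). The antagonist share and the decoy ratio do not overlap between the groups, while the ratio of the ligands does, through NS replicate 3 at 0.73.

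Il1r2, the decoy receptor, lies on chromosome 1 at 40113239 to 40164391, 99.8 kb from the signalling receptor Il1r1. It had the lowest counts of the 10 genes: 44, 23 and 36 in 4LPS samples, against 8, 3 and 18 in NS samples. In CPM these were 2.97, 1.56 and 2.44 in 4LPS samples and 0.504, 0.189 and 1.12 in NS samples. All 4LPS samples were above all NS samples, again with 4LPS replicate 2 and NS replicate 3 nearest to each other. The log2 fold change was 1.93 (SE 0.54, 95% interval from 0.68 to 3.18, edgeR adjusted p = 0.0475), the call closest to the threshold among the 3. It did not pass without 4LPS replicate 1, 2 or 3 (edgeR adjusted p = 0.116, 0.0663 and 0.118) or without NS replicate 1 or 2 (0.148 and 0.0893), and without NS replicate 3 the log2 fold change was 2.72 (edgeR adjusted p = 0.0104). Il1r2 and Il1rn moved together across the 6 samples (r = 0.96 of log2(CPM + 1)).

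Il1r1, the receptor that signals, did not rise with the decoy. It stood at 6.34, 4.69 and 5.56 CPM in 4LPS samples, against 9.31, 7.10 and 5.08 CPM in NS samples. NS replicate 3 was inside the 4LPS range and the other NS samples were above it, with a log2 fold change of -0.37 (SE 0.24, 95% interval from -0.93 to 0.18, edgeR adjusted p = 0.305). Per length, the ratio of Il1r2 to Il1r1 was 1.89, 1.31 and 1.79 in 4LPS samples and 0.22, 0.11 and 0.84 in NS samples. The decoy mRNA thus exceeded the receptor mRNA in every 4LPS sample and in no NS sample.

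Il1rap, the accessory chain that IL1R1 shares with the IL-33 and IL-36 receptors, had the most mRNA per length of the 3 receptor genes among the members. It stood at 3.95 ± 0.329 FPKM in 4LPS and 4.34 ± 0.511 FPKM in NS (SD, n = 3 each), against 1.19 and 1.64 FPKM for Il1r1. In CPM it was 18.4, 15.6 and 16.1 in 4LPS samples and 14.3, 15.8 and 19.1 in NS samples, each group inside or across the other. Its log2 fold change of 0.03 (SE 0.13, 95% interval from -0.28 to 0.33, edgeR adjusted p = 0.909) had no stable sign.

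None of the 3 inflammasome genes passed, by edgeR, DESeq2 or limma-voom, and 1, Pycard, had an unadjusted p under 0.05 by each. Pycard stood at 110, 109 and 110 CPM in 4LPS samples, against 88.4, 100 and 102 CPM in NS samples. All 4LPS samples were above all NS samples by a small margin, with a log2 fold change of 0.18 (SE 0.063, 95% interval from 0.03 to 0.32, edgeR adjusted p = 0.0954). On the deposited FPKM scale the margin was smaller, at 57.3 ± 0.54 in 4LPS and 54.0 ± 3.66 in NS (SD, n = 3 each). Without NS replicate 3 Pycard passed at 0.22 (edgeR adjusted p = 0.0478).

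Casp1, the protease, stood at 40.0, 41.1 and 36.6 CPM in 4LPS samples, against 32.3, 32.7 and 39.4 CPM in NS samples. NS replicate 3 was above 4LPS replicate 3, and NS replicates 1 and 2 were below all 4LPS samples. Its log2 fold change was 0.17 (SE 0.094, 95% interval from -0.04 to 0.39, edgeR adjusted p = 0.231), and without NS replicate 3 it was 0.27 (edgeR adjusted p = 0.0474). Nlrp3, the sensor that NF-κB signalling primes, stood at 117, 102 and 122 CPM in 4LPS samples, against 134, 98.6 and 133 CPM in NS samples. Its values ran across each other, and the log2 fold change was -0.10 (SE 0.12, 95% interval from -0.38 to 0.18, edgeR adjusted p = 0.602). The upper limits correspond to changes well under those of Il1rn and Il1r2, so increases of that size lay outside the intervals of Nlrp3, Pycard and Casp1.

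Per length, the means of all 3 inflammasome genes stood above those of Il18 and the receptors in both groups. Pycard was at 57.3 FPKM in 4LPS and 54.0 FPKM in NS, Casp1 at 30.9 ± 1.83 FPKM in 4LPS and 29.2 ± 3.24 FPKM in NS, and Nlrp3 at 29.9 ± 2.65 FPKM in 4LPS and 34.2 ± 5.84 FPKM in NS (SD, n = 3 each). In 4LPS samples the order of the means was Il1a, Il1b, Pycard, Casp1, Nlrp3, Il18, Il1rap, Il1rn, Il1r2 and Il1r1. Il1b overlapped with Il1a and with Pycard, while every Il1a value was above every Pycard value. Overlap was also found between Casp1 and Nlrp3, and among Il1rn, Il1r2 and Il1r1. In NS samples the order was Il1a, Pycard, Nlrp3, Il1b, Casp1, Il18, Il1rap, Il1r1, Il1rn and Il1r2, and Il1b spanned from below Il18 to above Pycard. Among the NS samples Il1a overlapped with Pycard, Nlrp3 with Casp1, Casp1 with Il18, and Il1rn with Il1r2, while Il1r1 lay above Il1rn in every sample.

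**Figure D3:**
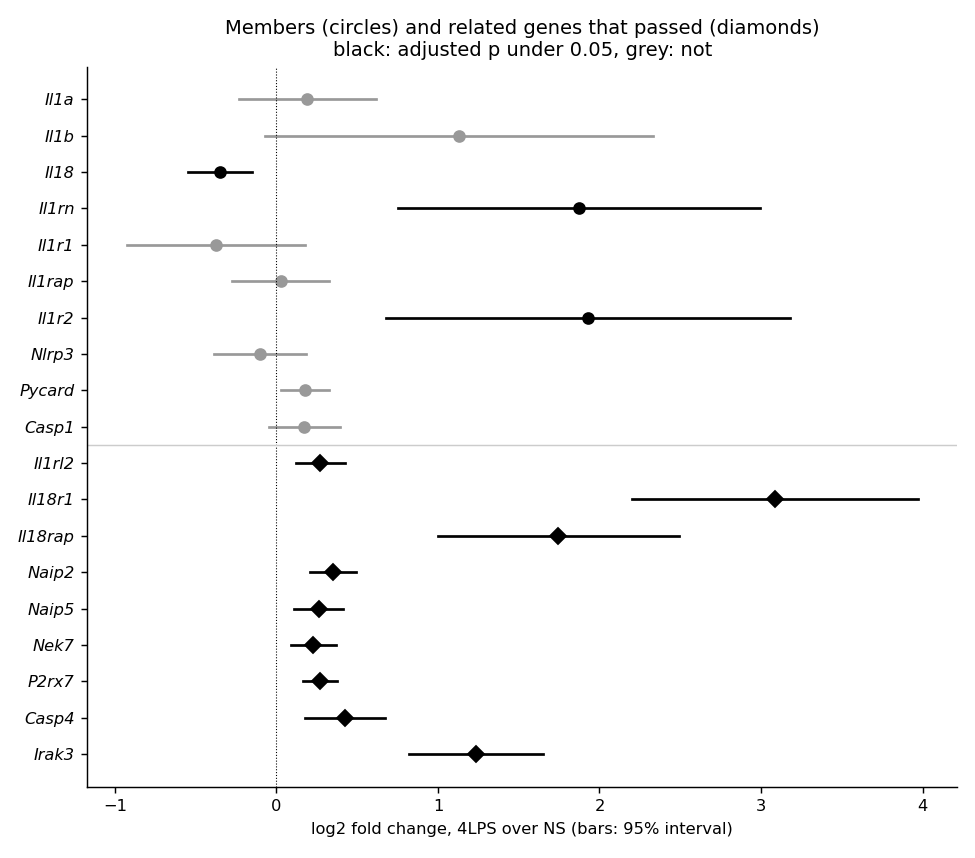
Log2 fold change of 4LPS over NS (horizontal axis) with its 95% interval from edgeR, for the 10 members (circles, above the line) and the 9 related genes that passed (diamonds). Black marks an adjusted p under 0.05 and grey the rest. Il1rn and Il1r2 stand near 1.9 with wide intervals, and among the related genes Il18r1 stands at 3.09.

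The rest of the pathway was read from 5 lists of 48 related genes, of which 42 were in the table and 41 could be tested. Of these, 9 rose, none fell and 32 did not pass (edgeR), with a median log2 fold change of 0.08. The share that rose is to be read beside the 9.95% of all genes called higher. DESeq2 called 11 higher and limma-voom 9. For falls, edgeR, DESeq2 and limma-voom each called 0, with 1, 1 and 2 genes at an unadjusted p under 0.05, among them Tollip, an inhibitor of IRAK1.

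The receptors of IL-18 moved most. Il18r1, the ligand-binding chain, had 64, 47 and 80 counts in 4LPS samples, against 9, 4 and 11 in NS samples. Every 4LPS sample was above every NS sample, with a log2 fold change of 3.09 (SE 0.38, edgeR adjusted p = 0.00169). Il18rap, its accessory chain, stood at 13.2, 10.6 and 12.3 CPM in 4LPS samples, against 2.71, 2.26 and 5.76 CPM in NS samples. The groups did not overlap and NS replicate 3 was the highest of its group, with a log2 fold change of 1.74 (SE 0.32, edgeR adjusted p = 0.0104). Both passed in every alternative that could be run, 15 for Il18r1 and 18 for Il18rap. The ligand Il18 was thus lower in 4LPS samples in which both receptor chains were higher.

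NK cells and T cells are known to carry the IL-18 receptor. All 9 NK markers (Ncr1, Klrb1c, Gzma, Prf1, Eomes and others) were detected and summed to 99.97, 93.4 and 108 CPM in 4LPS samples and 6.73, 7.23 and 10.4 CPM in NS samples, and 8 of the 9 rose. Of the 8 T cell markers, 7 were in the table and summed to 14.5 to 18.4 CPM in 4LPS samples and 4.09 to 5.33 CPM in NS samples, and the 3 that could be tested rose. Most of this sum was Cd4 and Lck, with means of 7.52 and 6.23 CPM in 4LPS and 3.77 and 0.667 CPM in NS. Cd3d, Cd3e, Cd3g and Cd8b1 had 23, 19, 21 and 19 counts over the 4LPS samples, too few to be tested. The part of these cells in the level of Il18r1 and Il18rap was not tested.

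Of the 6 other receptors and binding proteins of the family, Il1rl2, the IL-36 receptor, also rose: it stood at 82.9, 90.3 and 84.3 CPM in 4LPS samples and 67.4, 69.5 and 76.4 CPM in NS samples (log2 fold change 0.27, edgeR adjusted p = 0.0287). Without 4LPS replicate 2 or 3, or NS replicate 1 or 2, its adjusted p ran from 0.0545 to 0.0983 (edgeR). Among the 6 other ligands, 1 could be tested. Il33, an alarmin made by glia, had 33, 63 and 37 counts in 4LPS samples and 36, 72 and 119 in NS samples, and its log2 fold change of -0.65 did not pass (edgeR adjusted p = 0.328).

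Among the other inflammasome sensors and regulators, 4 of 13 tested rose, all by small amounts. P2rx7, the ATP-gated channel that triggers NLRP3, stood at 418, 437 and 412 CPM in 4LPS samples, against 341, 355 and 356 CPM in NS samples. The gap between the groups was wide beside the spread within them (log2 fold change 0.27, SE 0.046, edgeR adjusted p = 0.00746). Naip2, a sensor of bacterial secretion systems, stood at 175, 179 and 188 CPM in 4LPS samples and 134, 138 and 153 CPM in NS samples (log2 fold change 0.35, edgeR adjusted p = 0.0083). Naip5, a sensor of flagellin, had a log2 fold change of 0.26 (edgeR adjusted p = 0.0323), and Nek7, the kinase that binds NLRP3, one of 0.23 (edgeR adjusted p = 0.0387).

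P2rx7 and Naip2 passed with any 1 sample left out. Naip5 did not pass without 4LPS replicate 2 or 3 or NS replicate 1 or 2 (edgeR adjusted p from 0.0611 to 0.0843), and Nek7 did not pass without any 1 sample other than NS replicate 3 (from 0.0535 to 0.123). Without a composition factor Il1rl2, Naip5, Nek7 and Casp4 did not pass either (edgeR adjusted p = 0.0853, 0.114, 0.131 and 0.066). Nor did they pass in any limma fit on FPKM (limma adjusted p from 0.0890 to 0.209), and they were called in 10, 9, 9 and 9 of 18 alternatives. P2rx7 and Naip2 were called in 17 of 18, missing in limma on log2(FPKM + 0.1) (limma adjusted p = 0.0525 and 0.0511). Naip2, Naip5 and Naip6 are closely similar copies, so RSEM divides reads among them and each is uncertain by itself. Naip6, singled out after its values were seen, was listed with 378 counts in 4LPS replicate 1 and 0 in the other 5 samples, and it was not tested. The DNA sensor Aim2 had a log2 fold change of -0.02 (edgeR adjusted p = 0.88), and Nlrc4, the partner of the Naip sensors, one of -0.03 (edgeR adjusted p = 0.959).

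Casp4, the mouse caspase-11 that binds cytosolic LPS directly, was the 1 gene that passed of 6 other inflammatory caspases and pore formers. It stood at 19.2, 18.1 and 20.2 CPM in 4LPS samples, against 15.04, 12.6 and 15.2 CPM in NS samples. The groups did not overlap (log2 fold change 0.43, SE 0.11, edgeR adjusted p = 0.0323), but Casp4 did not pass without any 1 sample other than NS replicate 3 (edgeR adjusted p from 0.0521 to 0.0887). Gsdmd, which forms the pore through which IL-1β leaves the cell, had 133, 128 and 129 CPM in 4LPS samples and 109, 125 and 127 CPM in NS samples and did not pass (edgeR adjusted p = 0.26).

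Of 15 genes of IL-1 receptor signalling, 1 passed. Irak3, which encodes the inhibitory kinase IRAK-M, stood at 12.3, 9.86 and 14.9 CPM in 4LPS samples, against 4.78, 5.03 and 5.89 CPM in NS samples. Every 4LPS sample was well above every NS sample, NS replicate 3 included, with a log2 fold change of 1.24 (SE 0.18, edgeR adjusted p = 0.00361), and it passed in all 18 alternatives. The signalling core did not pass: Myd88 had a log2 fold change of -0.13, Irak4 of 0.11 and Traf6 of -0.08 (edgeR adjusted p = 0.179, 0.228 and 0.532). The feedback genes Nfkbia and Tnfaip3, which NF-κB itself switches on, had log2 fold changes of 0.44 and 0.53 (edgeR adjusted p = 0.101 and 0.127), with NS replicate 3 the highest NS sample in both.

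**Figure D4:**
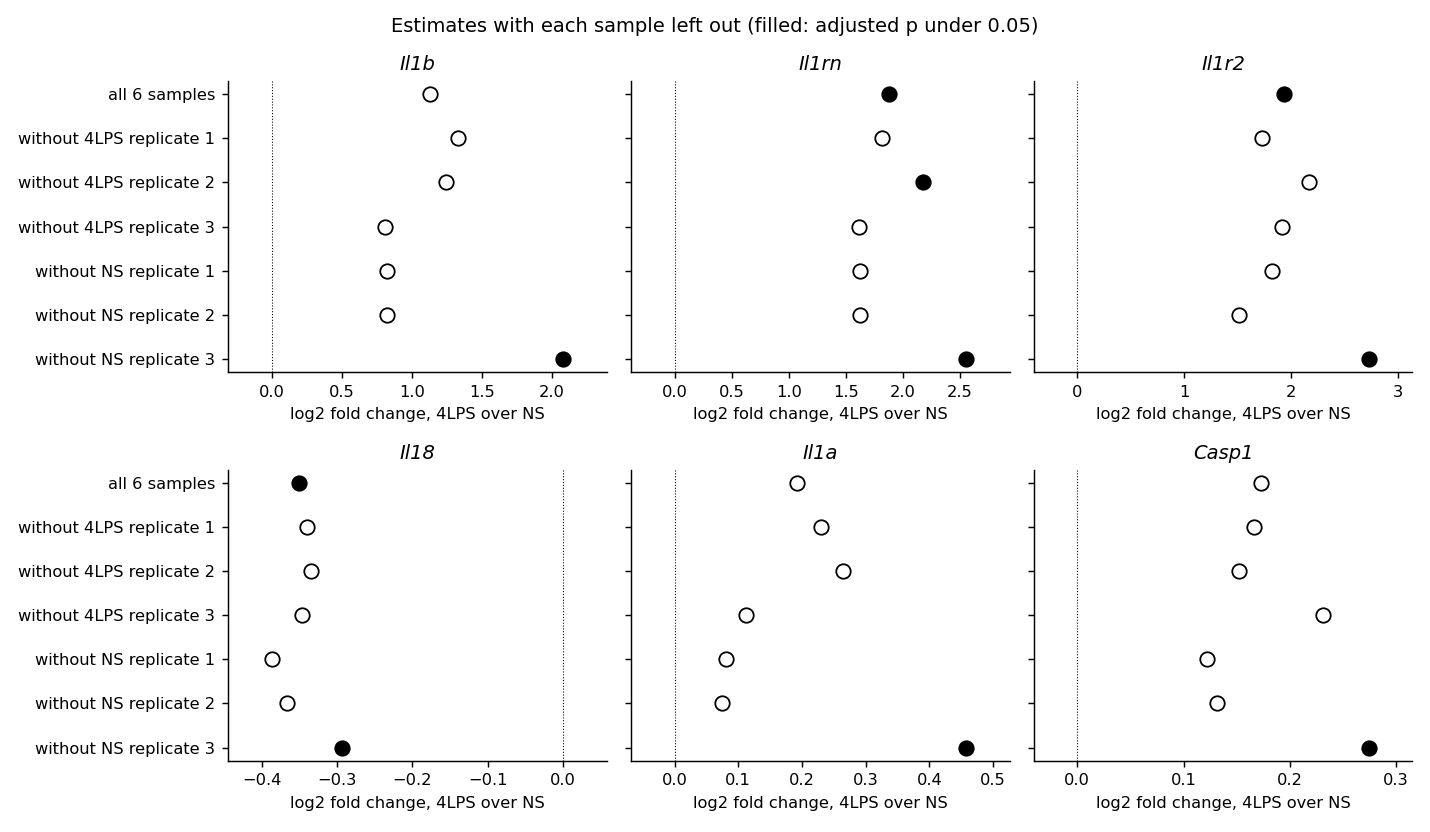
Log2 fold change of 4LPS over NS (horizontal axes, scaled for each gene) for 6 members, fitted by edgeR with all 6 samples and with each sample left out (rows). Filled points have an adjusted p under 0.05. Without NS replicate 3 all 6 estimates pass, and of the estimates with all samples those of Il1rn, Il1r2 and Il18 pass.

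NS replicate 3 decided more of the members' calls than any other sample. Without it 6 members were called higher (Il1a, Il1b, Il1rn, Il1r2, Pycard and Casp1) and 1 lower (Il18). Of the 13327 genes tested in that fit, 1629 were called higher and 1215 lower, against 1308 and 845 of 13151 with all samples. Without 4LPS replicate 2, 1 member was higher and 0 lower, and without any 1 of the other 4 samples 0 were called in either direction (edgeR). Of all genes tested, 935 were higher and 363 lower without 4LPS replicate 2. In the other 4 fits 781 to 982 were higher and 369 to 557 lower. Each of these fits leaves 1 group with 2 samples. The counts of related genes called higher ran from 5 to 13 with a sample left out.

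Neutrophils carry much Il1b, Il1rn and Il1r2 mRNA, and neutrophil markers are set beside these genes first. All 11 markers were detected in every sample, and 1, Csf3r, was called higher and 10 did not pass. Csf3r, which microglia also express, made up much of the sum, and leaving it out was chosen after the values were seen. The other 10 (S100a8, S100a9, Ly6g, Retnlg, Mmp8 and others) summed to 1230, 517 and 806 CPM in 4LPS samples and 201, 207 and 779 CPM in NS samples. By edgeR, 0 of the 10 passed and 4 had an unadjusted p under 0.05, with 1 called by DESeq2 and 0 by limma-voom, where 4 and 9 had an unadjusted p under 0.05.

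Il1r2 ranked the samples nearly as this sum did, with r = 0.91, and Il1rn had r = 0.93 with it (log2 scale, 6 samples that share their libraries and groups). Il1b had r = 0.87 with this sum, against 0.77 with the immediate early genes. At nearly the same sum, 4LPS replicate 3 (806 CPM) and NS replicate 3 (779 CPM) differed in the members: Il1r2 was 2.44 and 1.12 CPM, Il1rn 6.51 and 2.29 CPM, and Il1b 97.4 and 61.5 CPM. This is 1 pair of samples, chosen after the values were seen, and carries no test. The 7 monocyte markers, all detected, summed to 157 to 235 CPM in 4LPS samples and 129 to 289 CPM in NS samples, and 0 were called by edgeR and limma-voom and 2 by DESeq2, with 3, 4 and 3 at an unadjusted p under 0.05 by edgeR, limma-voom and DESeq2.

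Markers of dendritic, NK, T and B cells moved with Il1rn and Il1r2 about as closely as the neutrophil markers. The 8 dendritic cell markers (Flt3, Xcr1, Clec9a and others), all detected, summed to 68.9, 47.5 and 66.6 CPM in 4LPS samples and 38.1, 35.9 and 51.3 CPM in NS samples, and 4 of the 8 rose by edgeR. Their sum had r = 0.97 with Il1rn and 0.93 with Il1r2. For the NK and T cell sums, r was 0.89 and 0.91 with Il1rn and 0.86 and 0.88 with Il1r2. Of 6 B cell markers, 5 were in the table and summed to 21.3 to 21.5 CPM in 4LPS samples and 13.9 to 19.0 CPM in NS samples (r = 0.87 with Il1rn and 0.98 with Il1r2). The 8 border-associated macrophage markers, all detected, summed to 230 to 522 CPM in 4LPS samples and 288 to 421 CPM in NS samples. Of these, 1 rose by edgeR. Their sum had lower r, 0.46 with Il1rn and 0.40 with Il1r2, as had the monocyte sum, 0.62 and 0.68. Fn1 made up much of the monocyte sum, with means of 96.5 of 208 CPM in 4LPS and 135 of 199 CPM in NS. Its log2 fold change was -0.49 and did not pass, while 6 of the 7 monocyte markers had positive values (median 0.71). No r was computed without Fn1, so the lower r does not set monocytes apart. Among the neutrophil, dendritic, NK, T and B cell sums, the r values set no 1 cell type apart. The part of neutrophils, monocytes and these other cells in the levels of Il1b, Il1rn and Il1r2 was not tested.

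Choroid plexus cells and endothelial cells are known for Il1r1 in the brain. The 8 choroid plexus markers (Ttr, Folr1, Kl and others) summed to 2235, 2.52 and 537 CPM in 4LPS samples and 6624, 5757 and 659 CPM in NS samples, and 0 of the 8 were called by edgeR, DESeq2 or limma-voom, with none at an unadjusted p under 0.05. In 4LPS replicate 2, where Kcnj13 and Aqp1 were at 0 counts, Il1r1 was at its lowest, and in NS replicate 1, which had the highest sum, it was at its highest (r = 0.78 of log2 values over 6 samples). The 10 endothelial markers (Cldn5, Pecam1, Cdh5 and others) summed to 170, 220 and 365 CPM in 4LPS samples and 443, 351 and 716 CPM in NS samples, and 4 of the 10 fell. Il1r1 did not order the samples as this sum did (r = 0.098): in NS replicate 3, with the highest sum, it was the lowest of the NS samples. Other sums moved with Il1r1 as closely as that of the choroid plexus, with r = 0.85 for 8 neuronal markers and -0.79 for the immediate early genes. The part of all these cells in the level of Il1r1 was not tested.

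**Figure D5:**
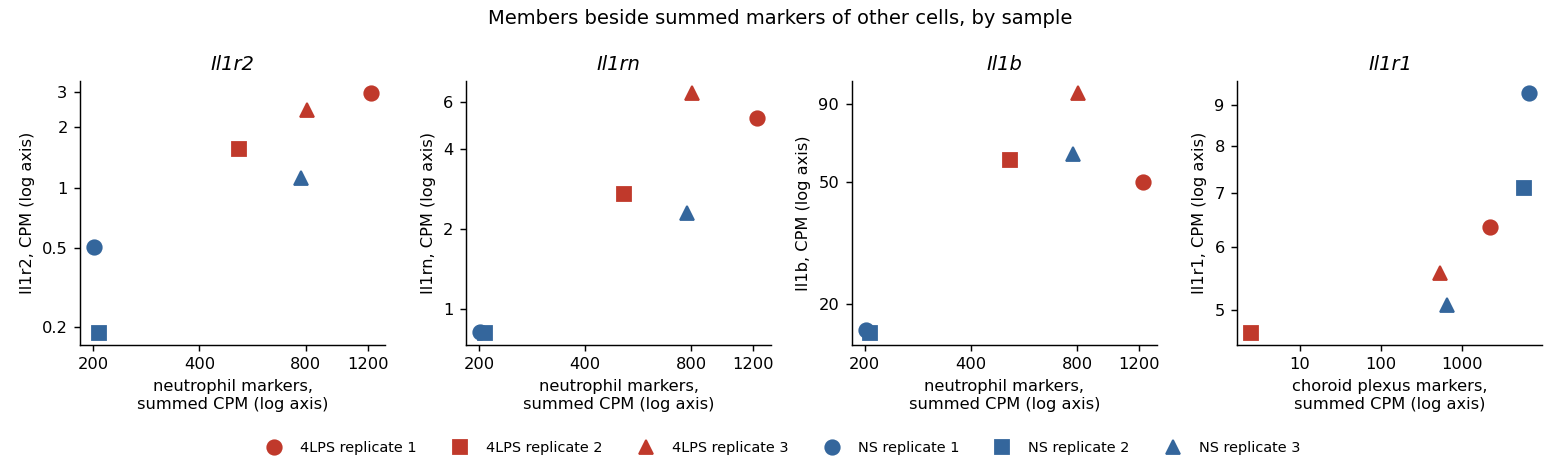
CPM of Il1r2, Il1rn and Il1b against the summed CPM of 10 neutrophil markers, and of Il1r1 against that of 8 choroid plexus markers, by sample (log axes; red 4LPS, blue NS; marker shapes give the replicate number). NS replicate 3 lies apart from the other NS samples at a neutrophil sum of 779 CPM. Its Il1r2, Il1rn and Il1b lie below those of 4LPS replicate 3 at 806 CPM, a pair picked after the values were seen. In 4LPS replicate 1, at 1230 CPM, Il1b lies below that of NS replicate 3, while Il1rn and Il1r2 lie above.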

How the data were processed

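CD11b+ cortex cells of 3 4LPS and 3 NS samples at D7, each from 2 mice, were analysed by RNA-seq. The sample labels gave each sample's group and replicate number.

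The authors used HISAT2 2.0.4 and Bowtie2 2.2.5 for mapping (to mm39 in the methods; the submitters' processing notes list mm39 and mm10) and RSEM 1.2.8 for expression, and name DESeq2 1.16.1 for testing. For the gene models, nothing was given in the sources used here. Deposited values were RSEM expected counts, which need not be whole, with FPKM values, TPM values and a normalized signal (counts divided by a size factor). TPM, the normalized signal and the authors' group means were not used. RSEM divides reads among near-identical genes.

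Expected counts were rounded (2.77% were not whole) and tested with edgeR 4.0.16 under R 4.3.3. TMM factors were used, low genes were removed by filterByExpr with the 2 groups, and p-values of the quasi-likelihood F-test were adjusted by Benjamini-Hochberg across 13151 genes, at a threshold of 0.05. CPM values carry the TMM factors. FPKM values served for levels between genes and for ratios. Likeness is Pearson's r of log2(CPM + 1) over the 6 samples among genes with a mean of at least 5 CPM. The code was tested on simulated data.

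The members and gene lists were chosen with earlier results of these data known. Named genes are the 10 members, related genes that passed or were among 5 or fewer tested in their list, and the 3 genes most like Il1b, Il1rn and Il18. A gene of the microglial marker list is not reported here and was left out of its sum. Other related genes are named for contrast and were chosen after their values were seen. Coordinates are those of GENCODE on GRCm39 and promoters those of RefSeq on GRCm38.p6, each matched by symbol for all 10 members. Alternatives changed the factors (RLE, or no composition factor), the filter (none, or 50 counts in 3 samples), the tool (DESeq2 1.42.0 or limma-voom, limma 3.58.1), and the unit (limma on log2(FPKM + 1) with at least 1 FPKM in 3 samples, also unfiltered, and with a pseudocount of 0.1). Others added a replicate block, an offset for gene length by loess, or both, or left out 1 sample. Samples of a group differed by more than sampling noise, the lowest mean chi-square per gene being 5.12.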

Additional observations from a re-analysis of the deposited data

How the results depend on the processing

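Il18 kept its direction in all 18 alternatives and its call in 12, Il1rn its call in 11 of 17 and Il1r2 in 10 of 17, both with the same direction throughout. With at least 50 counts in 3 samples Il1rn and Il1r2 were not tested and 0 members were higher. Limma on log2(FPKM + 0.1), and on log2(FPKM + 1) without the filter, also gave 0 members higher, and DESeq2 gave 0 lower. With each sample left out, 0 to 6 members were higher and 0 to 1 lower, 5 to 13 related genes higher, and 781 to 1629 of all genes higher and 363 to 1215 lower, against 1308 and 845 with all samples. Il1rap changed sign without a composition factor (-0.070), in limma on log2(FPKM + 1) with and without the filter (-0.11 in both) and on log2(FPKM + 0.1) (-0.13), and without 4LPS replicate 1 (-0.044) or NS replicate 1 (-0.064), in a range from -0.064 to 0.15 with each sample left out. Dropping the composition factor moved the median log2 fold change of all genes to -0.11, with 1711 genes lower and 34.6% of calls higher, against 60.8% with it, and left 5 related genes higher and 3 lower. Il1rap lay above that median. In limma on log2(FPKM + 1), log2(FPKM + 0.1) and log2(FPKM + 1) without the filter, 745, 689 and 777 of all genes were higher (35.2%, 35.6% and 36.7% of calls), 1369, 1247 and 1341 lower, and 4, 2 and 5 related genes higher with 2 lower in each. The length correction gave 2130 genes higher (73.4% of calls), and leaving out 4LPS replicate 2 moved that share to 72.0%. On the FPKM scale the log2 ratio of group means was -0.44 for Il18, against -0.35 in CPM, and 0.084 for Pycard, against 0.18. The causes of these shifts were not tested.

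The replicate numbers did not pair the samples: deviations from the group means of same-numbered samples correlated at 0.51, -0.25 and 0.13, and not every sample correlated best with its own number. With the number as a block, 1275 of all genes were higher and 1081 lower, and 3 members were higher, Il1b now among them (log2 fold change 1.34, edgeR adjusted p = 0.00779), while Naip5 did not pass (0.0528). The block with the length correction gave 2388 of all genes higher (69.3% of calls) and 15 related genes higher.

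Depth limits Il1r2 and Il1rn, which rest on 103 and 214 counts over the 4LPS samples and 29 and 63 over the NS samples.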
